A study of Mus musculus with 6 samples.

Results

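The fibrillar collagens and the small matrix proteins around them were followed in the RNA of sorted kidney endothelial cells (ECs). The group held 10 genes, taken by name from the 55401 genes that the count table lists: the fibrillar collagen chains Col1a1, Col1a2, Col3a1, Col5a1 and Col5a2, the collagen VI chains Col6a1 and Col6a2, and the small leucine-rich proteoglycans Dcn (decorin), Lum (lumican) and Bgn (biglycan). All 10 were in the table.

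Fibrillar collagens are triple helices that assemble outside the cell into the fibres that give tissue its tensile strength. Collagens I and III form the bulk of these fibres, collagen V starts a fibre and limits its width, collagen VI builds a beaded network next to cells, and decorin, lumican and biglycan bind the fibre surface or signal from the matrix. Fibroblasts are the main source of most of these proteins, smooth muscle cells and pericytes make some of them, and ECs are better known for the basement membrane collagens.

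ECs positive for CD31 (encoded by Pecam1) and negative for the leukocyte antigen CD45 (encoded by Ptprc) were sorted from the kidneys of 3 Cdh5CreERT2 Rbpj f/f mice, called RbpjΔEC, and of 3 Cre-negative littermates, called CTRL. Rbpj is the DNA-binding factor through which all Notch receptors act, and the comparison asks which transcripts of ECs depend on it. The Cdh5 promoter restricts the recombinase to endothelium, so other cells of the RbpjΔEC mice keep an intact Rbpj unless they express Cdh5. Mice of both groups, the controls included, received 5 doses of 1.5 mg tamoxifen at 8 weeks of age, kidneys were taken 12 weeks later, and the labels give an age of 21 weeks. No Cre-positive mouse without floxed Rbpj was among the samples, so effects of the recombinase and of the deletion cannot be told apart.

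Each library had between 39649171 and 47726850 counts on genes, so that 3 counts, taken as the floor of detection, correspond to 0.0634 to 0.0749 CPM (counts per library total adjusted by TMM factors, times 1e6). In CTRL 1, 33764 genes had a count, and in each of the remaining 5 libraries between 25629 and 26785 genes had one. Rbpj itself had 1127 to 1408 counts per CTRL library and 1094 to 1294 per RbpjΔEC library. Reads over the whole gene were counted and not those over the floxed part alone, so Rbpj does not check the labels. The CD31 gene Pecam1 was at 2197.8 ± 165.8 CPM in CTRL and 1955.8 ± 105.6 CPM in RbpjΔEC, and Ptprc was at 2.59 ± 1.38 and 0.957 ± 0.564 CPM (SD, n = 3 for each).

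The matrix genes differed widely in level. Bgn was abundant, the collagen V chains Col5a2 and Col5a1 were at intermediate level, Col1a2 and Col3a1 were low, and Col1a1, the collagen VI chains, decorin and lumican were near the floor of 3 counts. Bgn alone held between 83.5% and 86.1% of the counts of the 10 genes in each library. The summed level of the 10 genes was 261, 195 and 253 CPM in the CTRL libraries 1 to 3, and 160, 184 and 175 CPM in those of RbpjΔEC, which is a mean difference of -63.2 CPM, most of it Bgn.

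**Figure D1:**
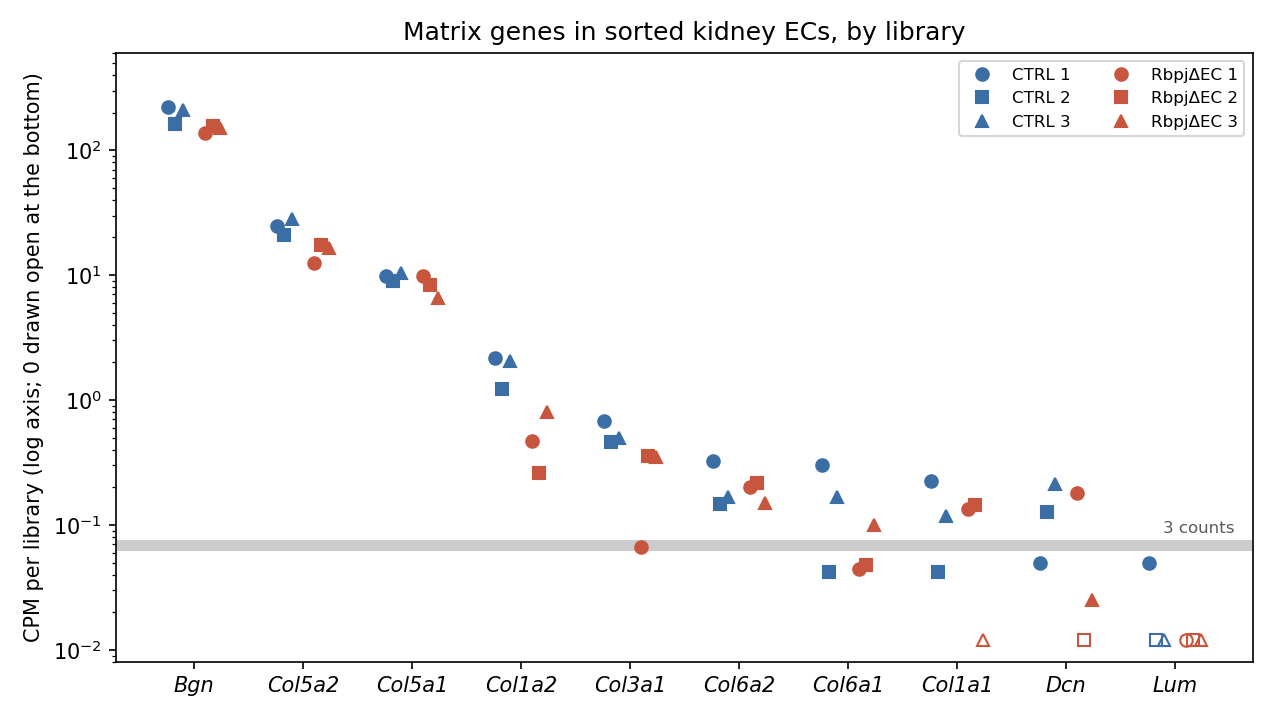
Level of each of the 10 matrix genes in each library, in CPM on a log axis, with CTRL in blue, RbpjΔEC in red and 1 symbol per replicate number. The grey band marks 3 counts and open symbols at the bottom are libraries with 0 counts. Bgn lies above 100 CPM in every library, while Col6a1, Col6a2, Col1a1, Dcn and Lum stay below 0.4 CPM.

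Levels of different genes were compared per kilobase (kb) of annotated exon. Bgn had a mean of 28.5 CPM per kb over the 6 libraries, above 93.3% of the tested genes. It was 13.6 times the level of Col5a2, which had 2.09 CPM per kb. Col5a1 followed at 1.06 CPM per kb, 11.3 times Col1a2 at 0.0937 CPM per kb. Up to this point no library of the higher gene overlapped any library of the next gene. From Col1a2 downwards each gene overlapped its neighbour in the order: Col3a1 had 0.0409, Col6a1 0.0266, Col6a2 0.0241, Dcn 0.0169, Col1a1 0.0168 and Lum 0.00340 CPM per kb. The exonic length used is the union over all annotated transcripts, 12.4 kb for Col1a2, and a longer union lowers the value per kb.

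For 6 of the 10 genes RefSeq gave a promoter window on GRCm38.p6, of which the 250 bases before the start were searched on both strands. The windows of Bgn (chrX:73483351-73483600, plus strand), Col5a1 (chr2:27886175-27886424, plus strand) and Col3a1 (chr1:45311288-45311537, plus strand) are shown because these tested genes differ widely in level, with Bgn highest and Col3a1 lowest of the 5 tested, and their windows contain no annotated exon. Capitals mark the letters GGGCGG or their reverse complement CCGCCC, the core bound by factors of the Sp family, and the letters TATAAA.
Bgn: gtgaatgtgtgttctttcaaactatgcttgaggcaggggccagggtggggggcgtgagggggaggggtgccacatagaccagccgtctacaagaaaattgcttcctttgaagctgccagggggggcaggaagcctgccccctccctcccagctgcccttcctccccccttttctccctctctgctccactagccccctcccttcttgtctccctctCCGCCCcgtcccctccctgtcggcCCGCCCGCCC
Col5a1: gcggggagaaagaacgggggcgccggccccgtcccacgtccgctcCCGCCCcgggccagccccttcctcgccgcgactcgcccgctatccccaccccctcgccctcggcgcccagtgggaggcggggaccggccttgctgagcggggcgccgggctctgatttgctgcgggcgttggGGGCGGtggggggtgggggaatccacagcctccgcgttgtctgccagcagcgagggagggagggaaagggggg
Col3a1: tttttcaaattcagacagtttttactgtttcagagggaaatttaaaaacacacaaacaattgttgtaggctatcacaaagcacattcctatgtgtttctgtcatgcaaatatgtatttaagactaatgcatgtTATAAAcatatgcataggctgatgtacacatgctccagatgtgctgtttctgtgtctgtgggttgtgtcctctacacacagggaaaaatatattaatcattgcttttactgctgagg
The Bgn window had 64.4% G and C and 3 matches of GGGCGG, beginning 34, 10 and 6 bases before the start, the last pair overlapping by shared bases. The Col5a1 window had 76.4% G and C and 2 matches, at 205 and 73 bases before the start. Col3a1 had 35.2% G and C, no GGGCGG and 1 TATAAA at 117 bases before the start. GGGCGG is present in 32.7% and TATAAA in 12.4% of all 32851 RefSeq windows of this length. The core letters of the Rbpj site, TGGGAA, occurred in none of the windows of these 3 genes or of Col1a2, Col6a1 and Col6a2, and in 21.6% of all windows. A window of this size says nothing about sites farther away.

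Levels were lower in RbpjΔEC for Bgn, Col5a2, Col1a2 and Col3a1 in every library against every CTRL library, and Col5a1 overlapped. Separation of this kind, lower in RbpjΔEC with no overlap, was found in 11.6% of the 18438 tested genes, and 11.4% were higher with no overlap. By edgeR's quasi-likelihood (QL) test, with p-values adjusted over all tested genes after Benjamini and Hochberg (BH), 0 of the 5 tested members passed 0.05, where 1.13% of all genes passed, 0.559% as lower and 0.575% as higher. At an unadjusted p under 0.05, 3 were lower (Bgn, Col5a2 and Col1a2) and 0 higher, where the shares of all genes were 8.62% and 8.88%. In the Wald test of DESeq2 the same 3 were below a BH-adjusted p of 0.05, where 2.77% of genes passed as lower. Col1a1, Col6a1, Col6a2, Dcn and Lum had too few counts to enter the test. Col3a1 exceeded the cutoff of the low-count filter in the 3 CTRL libraries and in RbpjΔEC 2 and 3. Because these are bulk samples, fewer cells of a type and less RNA per cell cannot be told apart.

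**Figure D2:**
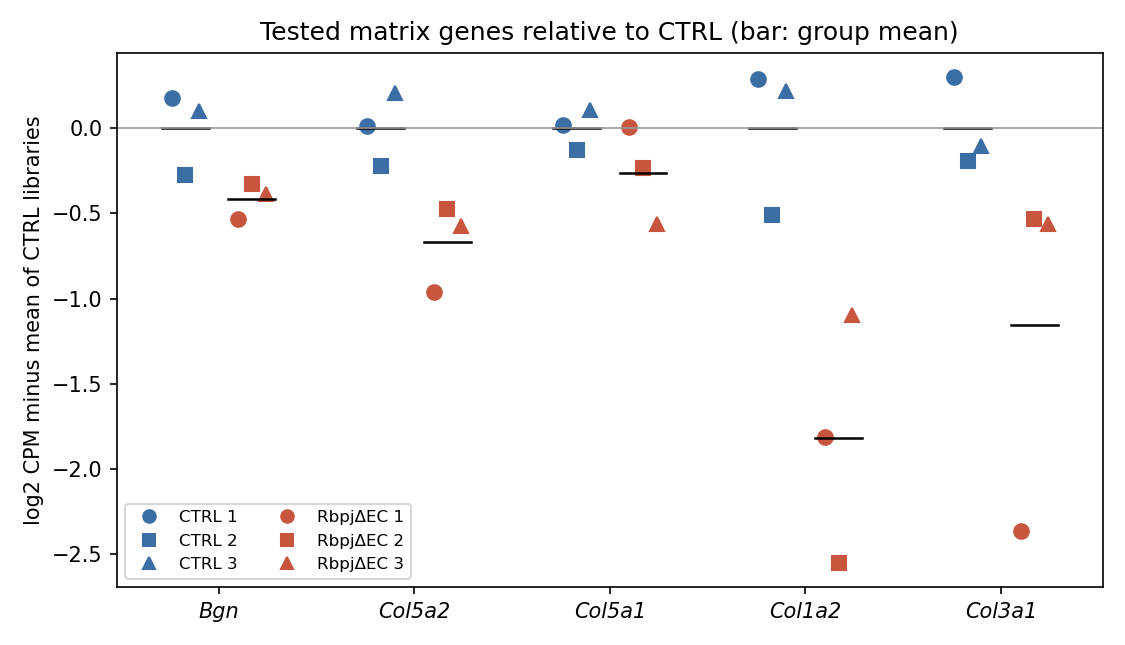
Log2 CPM of the 5 tested matrix genes in each library, minus the mean of the 3 CTRL libraries of the same gene, with bars for group means. The RbpjΔEC libraries lie below all CTRL libraries for Bgn, Col5a2, Col1a2 and Col3a1, and for Col5a1 RbpjΔEC 1 lies among the CTRL libraries.

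Collagen I is built from chains encoded by Col1a1 and Col1a2. Col1a2 (ENSMUSG00000029661.16, chromosome 6 of GRCm38, 4504814 to 4541544, plus strand) had 87, 58 and 87 counts in the CTRL libraries 1 to 3, against 21, 11 and 32 counts in the RbpjΔEC libraries. In CPM these were 2.17, 1.23 and 2.06 in CTRL and 0.468, 0.262 and 0.799 in RbpjΔEC. The highest RbpjΔEC library, replicate 3, was below the lowest CTRL library, replicate 2. The means were 1.82 ± 0.517 CPM for CTRL and 0.510 ± 0.271 CPM for RbpjΔEC (SD, n = 3 for each), the largest relative difference among the tested members. The RbpjΔEC level was 28.1% of CTRL, with a 95% interval from 14.8% to 53.5%. On the log2 scale the difference was -1.83 with a standard error of 0.426 (edgeR QL test, unadjusted p 0.00106, BH-adjusted p 0.0622). With DESeq2 the BH-adjusted p was 0.00367.

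Col1a1 (ENSMUSG00000001506.10, chromosome 11, 94936224 to 94953042, plus strand) encodes the chain that enters each collagen I molecule in the larger number of copies. Its counts were 9, 2 and 5 in CTRL and 6, 6 and 0 in RbpjΔEC, which overlapped. Per kb of exon, the level of Col1a2 was 5.11, 15.3 and 9.19 times that of Col1a1 in the CTRL libraries and 1.85 and 0.968 times in RbpjΔEC 1 and 2. These ratios divide by few counts of Col1a1, in CTRL 2 by 2 counts, below the floor of 3, and are imprecise. In RbpjΔEC 3 there were 32 counts of Col1a2 and 0 of Col1a1. Thus Col1a2 was above Col1a1 in the CTRL libraries, and in RbpjΔEC 2 they were level, with 11 and 6 counts.

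Collagen III is a homotrimer of the Col3a1 product and is found with collagen I in vessel walls and in the reticular fibres of lymphoid tissue. Col3a1 (ENSMUSG00000026043.18, chromosome 1, 45311538 to 45349706, plus strand) had 27, 22 and 21 counts in CTRL and 3, 15 and 14 counts in RbpjΔEC. RbpjΔEC 1 was at the floor, and the other RbpjΔEC libraries were closer to CTRL. The means were 0.545 ± 0.112 and 0.258 ± 0.165 CPM (SD, n = 3 for each). RbpjΔEC was at 47.3% of CTRL, with a 95% interval from 19.2% to 116.8% that includes no difference. Its log2 fold change of -1.08, with a standard error of 0.597, did not pass the edgeR QL test (BH-adjusted p 0.377), and without RbpjΔEC 1 it was -0.62.

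Col5a2 and Col5a1, which encode chains of collagen V, had the highest levels per kb of the 5 fibrillar chains among the members. Col5a2 (ENSMUSG00000026042.16, chromosome 1, 45374321 to 45503282, minus strand) lies 24614 bases from Col3a1 on the opposite strand. The CTRL libraries had 24.6, 21.0 and 28.2 CPM, from 988, 992 and 1190 counts, and the RbpjΔEC libraries had 12.5, 17.5 and 16.4 CPM, from 562, 736 and 656 counts. All RbpjΔEC libraries were below all CTRL libraries. The means were 24.6 ± 3.61 and 15.5 ± 2.62 CPM (SD, n = 3 for each), which placed RbpjΔEC at 63.0% of CTRL with a 95% interval from 50.6% to 78.4%. Its log2 fold change of -0.67 (standard error 0.144) had an unadjusted p of 0.000707 and a BH-adjusted p of 0.0550 in the edgeR QL test, just beyond the threshold, against a BH-adjusted p of 0.00146 with DESeq2. The gene model Gm38211, annotated inside Col5a2 on the same strand, had 11 to 21 counts in CTRL and 16 to 39 in RbpjΔEC, few beside those of Col5a2.

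Col5a1 (ENSMUSG00000026837.16, chromosome 2, 27886425 to 28039514, plus strand) encodes the chain present in nearly every form of collagen V. Its levels were 9.85, 8.89 and 10.5 CPM in CTRL and 9.77, 8.27 and 6.56 CPM in RbpjΔEC. RbpjΔEC 1 was level with CTRL and only RbpjΔEC 2 and 3 were below every CTRL library. The means were 9.74 ± 0.792 and 8.20 ± 1.6 CPM (SD, n = 3 for each). The log2 fold change was -0.25 with a standard error of 0.161, and the BH-adjusted p of the edgeR QL test was 0.458. The RbpjΔEC level was 84.3% of CTRL with a 95% interval from 66.1% to 107.5%, which includes no difference. The antisense gene 2810430I11Rik over the Col5a1 start had 3 to 15 counts per library.

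The ratio of Col5a2 to Col5a1, both per kb, was 2.21, 2.09 and 2.38 in the CTRL libraries, against 1.14, 1.88 and 2.21 in the RbpjΔEC libraries. RbpjΔEC 1 was lowest and RbpjΔEC 3 lay within the CTRL range. The mean ratio was 2.23 ± 0.149 in CTRL and 1.74 ± 0.549 in RbpjΔEC (SD, n = 3), and the difference was not tested. The remaining collagen V chain, Col5a3 (not a member, and added after its values were seen), had 113, 184 and 133 counts in CTRL and 88, 58 and 144 in RbpjΔEC, which overlapped.

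Biglycan carries glycosaminoglycan chains, binds collagen fibres, and when released from the matrix acts as a ligand of Toll-like receptors. Bgn (ENSMUSG00000031375.17, chromosome X, 73483602 to 73495933, plus strand) had 222.9, 162.7 and 211.2 CPM in the CTRL libraries, against 136.3, 157.4 and 151.0 CPM in the RbpjΔEC libraries. The groups did not overlap, but CTRL 2 and RbpjΔEC 2 were only a few CPM apart. The means were 198.9 ± 31.9 and 148.2 ± 10.8 CPM (SD, n = 3 for each), which placed RbpjΔEC at 74.5% of CTRL with a 95% interval from 62.7% to 88.5%. On the log2 scale this was -0.42 with a standard error of 0.112 (edgeR QL test, unadjusted p 0.00342, BH-adjusted p 0.0982), and the BH-adjusted p with DESeq2 was 0.0116. With 6052 to 8938 counts per library, counting error is small for Bgn, and the spread among the CTRL mice is the larger part of its error.

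Collagen VI and the other proteoglycans were near the limit of detection. Col6a1 (ENSMUSG00000001119.7, chromosome 10, 76708792 to 76726168, minus strand) had 12, 2 and 7 counts in CTRL and 2, 2 and 4 in RbpjΔEC. Col6a2 (ENSMUSG00000020241.13, chromosome 10, 76595762 to 76623630, minus strand), its neighbour at a distance of 85161 bases, had 13, 7 and 7 counts in CTRL and 9, 9 and 6 in RbpjΔEC. Both overlapped between the groups.

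Decorin is among the most abundant transcripts of fibroblasts in many tissues, and lumican shapes collagen fibres alongside it. Dcn (ENSMUSG00000019929.16, chromosome 10, 97479609 to 97518143, plus strand) had 2, 6 and 9 counts in CTRL and 8, 0 and 1 in RbpjΔEC. Lum (ENSMUSG00000036446.5, chromosome 10, 97565128 to 97572703, plus strand) lies 46984 bases from Dcn and had 2 counts in CTRL 1 and 0 in the other 5 libraries. Together the 5 untested genes had 83 counts in CTRL and 53 in RbpjΔEC, with 7 of 30 values at 0. With no low-count filter, where they could be fitted, their unadjusted p in the edgeR QL test was between 0.231 (Lum) and 0.854 (Col6a2), so no difference was found at these counts.

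The 5 tested genes did not share 1 profile over the libraries. Over the 6 libraries, which include the difference between the groups, log2 CPM of Col5a2 had a Pearson correlation of 0.93 with Bgn and 0.87 with Col3a1, and Col1a2 had 0.81 with Bgn and 0.80 with Col5a2. Col5a1 correlated with the other 4 at -0.01 to 0.51. Scatter within the groups also differed: the coefficient of variation in CTRL and RbpjΔEC was 16.0% and 7.31% for Bgn, 14.7% and 16.9% for Col5a2, 28.4% and 53.1% for Col1a2, 20.6% and 64.2% for Col3a1, and 8.14% and 19.6% for Col5a1. Col3a1 had the fewest counts of the 5. Among 14130 genes with a mean of at least 1 CPM, those whose log2 CPM was closest to the mean standardized profile of the 5 were Arhgap31 (Pearson r = 0.999), Ap2b1 (0.996), Rab11b (0.996), Lamp2 (0.994), Ogdh (0.993), Maged2 (0.992), Ndufa4 (0.991) and Nipal3 (0.991). With 6 points such values are common: 654 genes exceeded 0.9.

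The calls for Bgn, Col5a2 and Col1a2 depended on the setting, and Col5a1 and Col3a1 were called under none. Under the 13 alternatives computed, every fitted log2 fold change of the 5 genes was negative. Without CTRL 2, the BH-adjusted p-values of the edgeR QL test were 0.00720 for Bgn, 0.0228 for Col5a2 and 0.0349 for Col1a2, in a fit where 1.56% of genes passed as lower. Without RbpjΔEC 3 they were 0.0207 for Col1a2 and 0.0463 for Col5a2, where 1.74% passed as lower. Leaving out any 1 of the other 4 libraries gave no call among the members. With no low-count filter Bgn, Col5a2 and Col1a2 passed, where 1.88% of genes passed as lower, and with the replicate number as a term Col5a2 and Col1a2 passed, where 0.965% did.

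**Figure D3:**
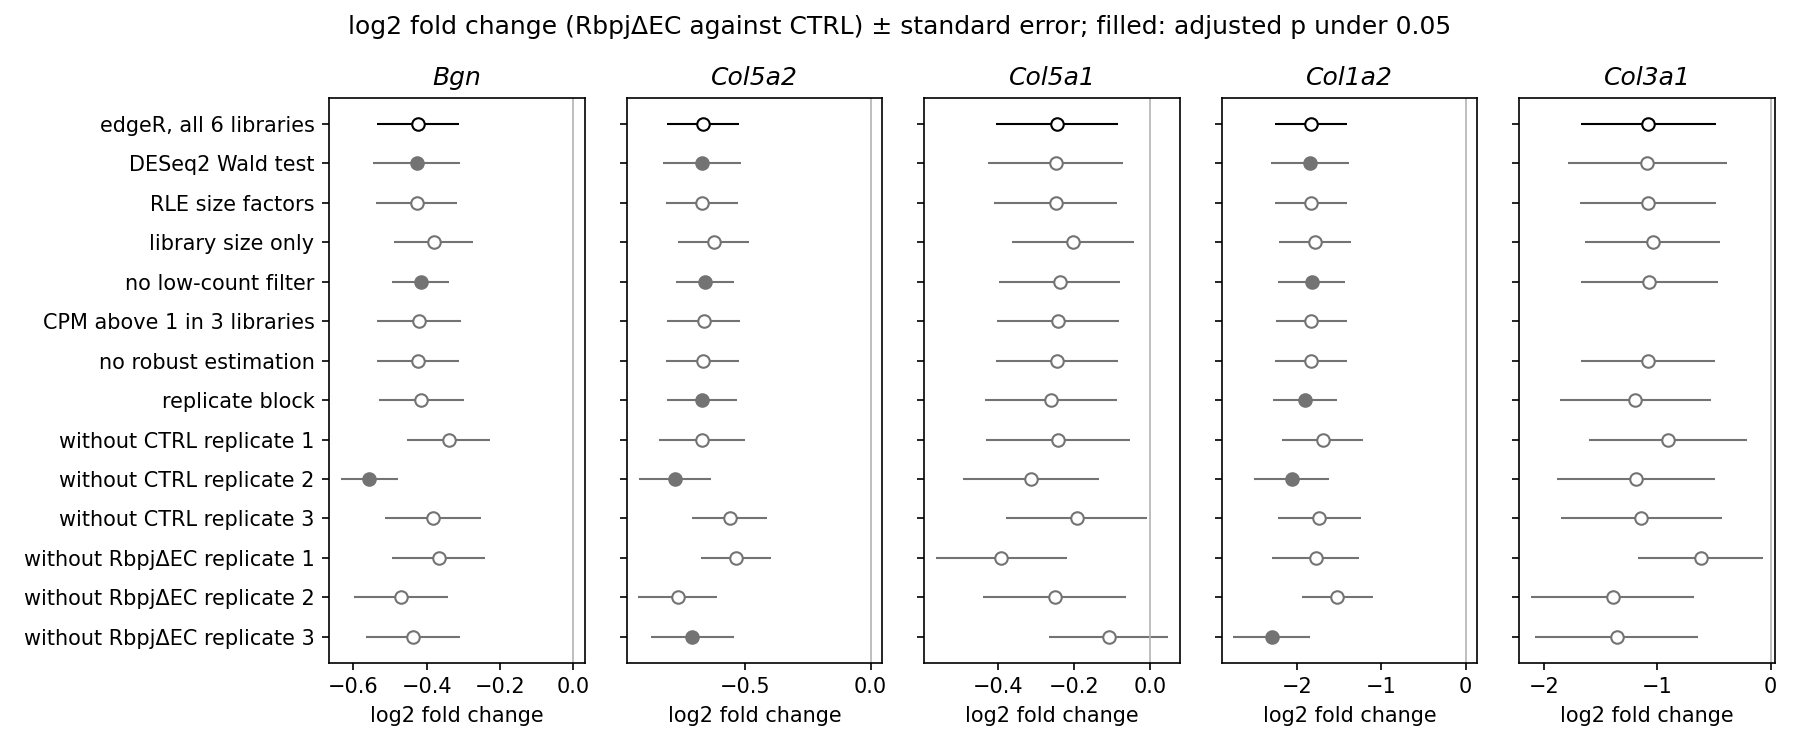
Log2 fold change (RbpjΔEC against CTRL) of the 5 tested matrix genes with its standard error, for the reported fit at the top and 13 alternatives below, with filled symbols where the adjusted p is under 0.05. Every estimate is below 0, Col1a2 has the widest distance from 0, Col5a1 and Col3a1 are never called, and Col3a1 has no value under the stricter filter.

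Other matrix collagens and proteoglycans gave no calls. Of 12 further fibrillar, collagen VI and fibril-associated chains, 7 were tested, 0 passed a BH-adjusted p of 0.05 in the edgeR QL test (2 were lower at an unadjusted p under 0.05), and the median log2 fold change was -0.16 against 0.01 for all tested genes. Col12a1, a fibril-associated collagen, was the highest at 81.7 ± 22.1 CPM in CTRL and 58.4 ± 7.11 CPM in RbpjΔEC (SD, n = 3 for each), with overlap. Col14a1, of the same class, had 4.48 ± 0.622 and 3.13 ± 0.261 CPM (SD, n = 3), without overlap and with a BH-adjusted p of 0.214 in the edgeR QL test. Col6a3, the remaining chain of the classical collagen VI and named after its values were seen, had 203, 124 and 82 counts in CTRL and 33, 20 and 68 in RbpjΔEC, without overlap and with a BH-adjusted p of 0.132 in the same test. It thus had more counts than Col6a1 and Col6a2 in every library. Of 12 other small leucine-rich proteoglycans 6 were tested, and none reached an unadjusted p under 0.05, with a median log2 fold change of -0.25. Ecm2 was highest among them at 44.0 ± 5.08 and 36.6 ± 6.96 CPM (SD, n = 3).

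Of 20 genes that fold and modify procollagen 19 were tested, with P4ha3 too low, 0 passed the BH-adjusted threshold of the edgeR QL test, 3 were lower at an unadjusted p under 0.05, and the median log2 fold change was -0.11. Serpinh1, the collagen-specific chaperone of the endoplasmic reticulum, had 300.0 ± 29.2 CPM in CTRL and 309.4 ± 65.1 CPM in RbpjΔEC (SD, n = 3 for each). P4hb, a subunit of prolyl 4-hydroxylase, had 291.7 ± 22.0 and 247.5 ± 20.3 CPM (SD, n = 3, BH-adjusted p 0.164). P3h2, a prolyl 3-hydroxylase named after its values were seen, was at 6.60 ± 1.33 and 3.29 ± 1.58 CPM (SD, n = 3), without overlap and with a BH-adjusted p of 0.133 in the edgeR QL test. For 16 genes of processing, assembly and crosslinking outside the cell, 14 were tested, 0 passed, 3 were lower and 1 higher when p was not adjusted, and the median was -0.14. Sparc, a collagen-binding matricellular protein, had 724.5 ± 79.9 and 662.7 ± 74.9 CPM (SD, n = 3). The gene that was higher was Bmp1, the procollagen C-proteinase, named after its values were seen, at 57.7 ± 6.68 CPM in CTRL and 75.1 ± 7.72 CPM in RbpjΔEC (SD, n = 3), without overlap and with a BH-adjusted p of 0.0900 in the edgeR QL test. The 3 lower genes, also named after their values were seen, were Pcolce, Lox and Fn1, all without overlap. Pcolce had 5.03 ± 1.42 and 2.59 ± 0.292 CPM, Lox 4.09 ± 0.657 and 2.46 ± 0.737, and Fn1 46.2 ± 12.3 and 28.9 ± 5.33 (SD, n = 3). Their BH-adjusted p-values in the same test were 0.0820, 0.167 and 0.188.

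Among 8 collagen receptors, 7 were tested and 1 passed as lower in the edgeR QL test, where 0.559% of all tested genes did. At an unadjusted p under 0.05 in this test, 3 were lower and 0 higher, where the shares of all genes were 8.62% and 8.88%. The median log2 fold change was -0.45. Ddr1, a receptor tyrosine kinase that binds collagen, fell from 7.89 ± 1.31 to 3.14 ± 0.963 CPM (SD, n = 3), or by 1.33 on the log2 scale with a standard error of 0.237 (edgeR QL test, BH-adjusted p 0.0273). The BH-adjusted p of this test rose to 0.103 without CTRL 1, 0.0929 without CTRL 3, 0.106 without RbpjΔEC 1 and 0.0688 without RbpjΔEC 2. Itgb1, the beta chain shared by the collagen-binding integrins, had 933.5 ± 58.1 and 739.9 ± 40.0 CPM (SD, n = 3, BH-adjusted p 0.0610). Mrc2, an uptake receptor for collagen, had 7.64 ± 0.774 and 4.68 ± 0.418 CPM (SD, n = 3, BH-adjusted p 0.0619). Itga1, an alpha chain of a collagen-binding integrin, had 465.4 ± 38.8 and 441.9 ± 28.6 CPM and overlapped (SD, n = 3, BH-adjusted p 0.677, edgeR QL test). Of the 7 tested receptors, 6 had a negative log2 fold change and 1 a positive one.

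The summed levels of fibroblast, mural and endothelial markers were each lower in RbpjΔEC with no overlap between the groups, while those of leukocyte, tubule and podocyte, and lymphoid stroma markers overlapped. The 15 fibroblast genes summed to 143.7 to 175.9 CPM in CTRL and to 76.9 to 104.1 CPM in RbpjΔEC, without overlap. Of these, 7 were tested and 2 fell past the BH-adjusted threshold of the edgeR QL test, where 0.559% of all tested genes did. Pi16, a marker of adventitial fibroblasts, supplied most of the sum and fell from 149.3 ± 16.3 to 81.4 ± 12.5 CPM (SD, n = 3, log2 fold change -0.88, BH-adjusted p 0.0138). Pdgfra, the receptor that defines many fibroblasts, fell from 3.46 ± 0.609 to 1.09 ± 0.573 CPM (SD, n = 3, log2 fold change -1.67, BH-adjusted p 0.0468). Fap, a protease of activated fibroblasts, was not lower, at 2.43 ± 0.670 and 3.00 ± 0.429 CPM (SD, n = 3, BH-adjusted p 0.578), and overlapped. In the same test Pi16 did not pass without CTRL 3 (BH-adjusted p 0.0731) or RbpjΔEC 1 (0.0742), and among the fits with 1 library left out Pdgfra passed only without CTRL 2 or RbpjΔEC 3, with 0.147, 0.173, 0.186 and 0.135 without CTRL 1, CTRL 3, RbpjΔEC 1 and RbpjΔEC 2. Pdgfra also missed the threshold with no robust estimation (BH-adjusted p 0.0604). Without Pi16, left out after its values were seen, the other 14 genes summed to 12.5, 14.2 and 12.8 CPM in CTRL and 7.49, 8.61 and 10.9 CPM in RbpjΔEC. Dpt, a defining fibroblast gene, had 0 counts in all 6 libraries, and 6 of the 15 had a mean of at most 3 counts.

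Smooth muscle and pericyte genes numbered 14, of which 13 were tested and 3 fell (Acta2, Myh11 and Rgs5), while 9 were lower and 1 higher before adjustment. Over all tested genes the shares were 0.559% lower past the adjusted threshold, and 8.62% lower and 8.88% higher before adjustment. Acta2, smooth muscle actin, fell from 10.2 ± 1.12 to 4.16 ± 1.48 CPM (SD, n = 3, BH-adjusted p 0.0369, edgeR QL test). Myh11, smooth muscle myosin, fell from 29.7 ± 4.34 to 14.0 ± 3.60 CPM and Rgs5, a pericyte gene, from 18.6 ± 4.69 to 10.1 ± 1.21 CPM (SD, n = 3, BH-adjusted p 0.0468 for both). The sum of the 14 was 274.4 to 327.9 CPM in CTRL and 234.1 to 260.7 CPM in RbpjΔEC. More of it came from Mylk, which overlapped between the groups at 173.1 ± 10.4 and 156.3 ± 9.30 CPM (SD, n = 3, BH-adjusted p 0.325), than from the other 13 genes together. None of the 3 calls held in the edgeR QL test without CTRL 1 or without RbpjΔEC 1, where the BH-adjusted p was 0.0956 and 0.154 for Acta2, 0.127 and 0.106 for Myh11, and 0.120 and 0.186 for Rgs5. Without CTRL 3, Acta2 was at 0.15 and Myh11 at 0.172, and Rgs5 was at 0.0599 without CTRL 2 and 0.135 without RbpjΔEC 2. Under settings that kept all libraries, the call of Rgs5 was lost with library size alone (BH-adjusted p 0.0553), the filter at 1 CPM (0.0523) and no robust estimation (0.0544), and that of Myh11 with the filter at 1 CPM (0.0506), all in the edgeR QL test. The pericyte genes Abcc9 and Kcnj8, which encode the subunits of a potassium channel, were higher in RbpjΔEC without overlap and without passing. Of all tested genes, 11.4% were higher with no overlap. Abcc9 was at 12.5 ± 3.44 and 25.5 ± 13.0 CPM (SD, n = 3, BH-adjusted p 0.307), and Kcnj8, named after its values were seen, was at 11.1 ± 1.36 and 21.1 ± 8.27 CPM (SD, n = 3, unadjusted p 0.0133 and BH-adjusted p 0.162, edgeR QL test).

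Leukocyte genes summed to 12.1, 3.57 and 7.43 CPM in the CTRL libraries, against 2.03, 2.17 and 4.62 CPM in the RbpjΔEC libraries, with Cd3e and Cd3d at 0 in all libraries and 0 of 4 tested genes past the adjusted threshold (2 lower at an unadjusted p under 0.05). Tubule and podocyte genes summed to 284 to 421 CPM in CTRL and 108 to 405 CPM in RbpjΔEC, with 0 of 10 past the threshold (2 lower at an unadjusted p under 0.05) and fold changes of both signs, 6 lower and 4 higher. Umod, of the thick ascending limb, was at 76.9 ± 26.1 CPM in CTRL and 33.6 ± 13.3 CPM in RbpjΔEC, and Slc12a1, of the same segment, at 90.1 ± 38.2 and 37.9 ± 18.4 CPM (SD, n = 3), both without overlap (BH-adjusted p 0.279 and 0.357, edgeR QL test). Slc12a3, of the distal convoluted tubule, was at 103.5 ± 38.9 and 29.9 ± 29.8 CPM (SD, n = 3, BH-adjusted p 0.388) and overlapped, with RbpjΔEC 3 above CTRL 3. Aqp2, of the collecting duct and named after its values were seen, was at 4.83 ± 4.12 and 0.707 ± 0.431 CPM (SD, n = 3, BH-adjusted p 0.159), also without overlap. Among the proximal tubule genes, Lrp2 and Slc34a1, named after their values were seen, had 129.2 and 73.5 CPM in RbpjΔEC 3, above every other library. The 8 genes of lymphoid stroma summed to 80.9 to 96.5 and 76.0 to 88.2 CPM, with Ccl19 at 0 and 0 of 3 tested genes past the threshold (1 lower at an unadjusted p under 0.05). Most of this sum was Ltbr, at 86.3 ± 6.54 and 80.1 ± 6.07 CPM (SD, n = 3), and without it, left out after its values were seen, the other 7 genes summed to 4.71, 1.84 and 3.84 CPM in the CTRL libraries and 1.43, 1.50 and 1.37 CPM in the RbpjΔEC libraries, without overlap. Cr2 had 67, 4 and 12 counts in CTRL and 2, 5 and 3 in RbpjΔEC. Tnfsf13b, named after its values were seen, went the other way, with 12, 6 and 3 counts in CTRL and 23, 9 and 21 in RbpjΔEC, which overlapped. Ccl21a, a chemokine of lymphoid stroma and lymphatic endothelium, was at 2.39 ± 0.780 and 0.858 ± 0.280 CPM (SD, n = 3, BH-adjusted p 0.0703, edgeR QL test), without overlap. The 14 endothelial genes, all tested, summed to 26102 to 29069 CPM in CTRL and 23994 to 24993 CPM in RbpjΔEC, without overlap, with 0 past the threshold and, before adjustment, 4 lower and 1 higher. The part that cells other than ECs had in the lower levels of the matrix genes was not tested.

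**Figure D4:**
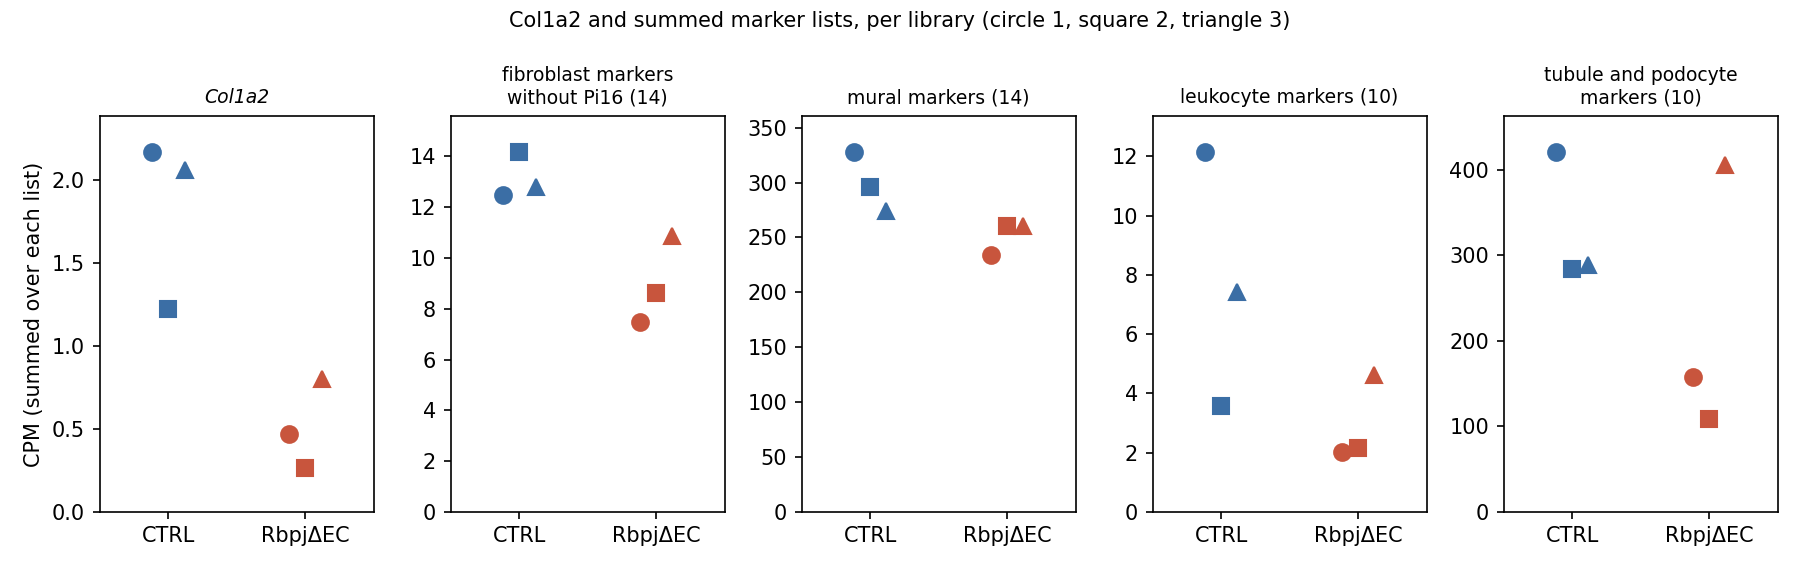
CPM of Col1a2 and summed CPM of 4 of the 6 marker lists in each library, on linear axes from 0, with CTRL in blue, RbpjΔEC in red and 1 symbol per replicate number. Col1a2, the fibroblast list without Pi16 and the mural list are lower in every RbpjΔEC library, while the leukocyte and the tubule and podocyte lists overlap between the groups.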

How the data were processed

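Sorted kidney ECs of 3 CTRL and 3 RbpjΔEC mice gave 1 RNA library each. The authors prepared stranded total RNA libraries, sequenced them in 1 pooled run, trimmed reads with Trim Galore 0.6.4, aligned them with STAR 2.6.1d and counted them per gene with featureCounts (Subread 1.6.4) within nf-core/rnaseq 1.4.2, on GRCm38.p6 with GENCODE M25, per the submitters' processing notes. The deposited values are raw counts per gene. The strand setting of the counting is not given in the sources used here, so antisense and overlapping genes may share reads.

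Groups and replicate numbers were taken from the labels. TMM factors, CPM and edgeR's quasi-likelihood test (edgeR 4.0.16 in R 4.3.3, estimateDisp, glmQLFit with robust estimation, no covariate) were computed on all 6 libraries, after filterByExpr (cutoff 0.236 CPM) had retained 18438 genes, over which p-values were adjusted by Benjamini-Hochberg with a threshold of 0.05. The log2 scale of the profiles used a prior count of 2. The standard error of a log2 fold change is its size divided by the square root of F, and 95% intervals came from the same fit. DESeq2 1.42.0 was an alternative, as were RLE size factors, scaling to library size alone, no low-count filter, a filter at 1 CPM in 3 libraries, no robust estimation, the replicate number as a block, and leaving out each library.

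GENCODE M21 (GRCm38) supplied positions and exonic lengths for 55141 of the 55401 listed genes, and may differ from M25 for single genes. The 10 genes and all gene lists were chosen with earlier results of these data known. Named in the text are all 10 members, list genes past the threshold, some of the 3 genes of highest mean CPM in each list, the genes of the sort, the 8 genes of nearest profile and annotated neighbours. Col5a3, Col6a3, P3h2, Bmp1, Pcolce, Lox, Fn1, Mfap5, Clec3b, Kcnj8, Aqp2, Lrp2, Slc34a1, Tnfsf13b and the lists without Pi16 or Ltbr were added after their values were seen. The fit was tested on simulated counts. No pair of libraries had identical counts. Libraries of 39649171 to 47726850 counts determine the level of Bgn well, whereas genes with fewer than 15 counts per library carry a large counting error.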

Additional observations from a re-analysis of the deposited data

How the results depend on the processing

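The log2 fold changes of Bgn, Col5a2, Col5a1, Col1a2 and Col3a1 were negative under every alternative that tested them. The calls moved, and so did the size of the changes when a library was left out. The members past an adjusted p of 0.05 numbered 0 in the reported fit of edgeR's quasi-likelihood test, 3 with DESeq2's Wald test, where Col1a2 was at -1.84, Col5a2 at -0.67 and Bgn at -0.43, and 3 with no low-count filter, where they were at -1.82, -0.66 and -0.42 (adjusted p = 0.000439, 2.25e-06 and 1.75e-05). Genes changed over the whole table numbered 209, against 944 with DESeq2 and 1436 with no filter, and genes of the other lists numbered 6, against 28 and 31. The cause was not tested. With library size as the only scaling, 159 genes were higher and 82 lower in place of 106 and 103, and the median over all genes went from 0.01 to 0.05. The summed CPM difference of the 10 members stayed between -84.0 and -50.7 with 1 library left out.

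With 1 library left out, members past the threshold numbered 0 to 3, all genes 21 to 700 and genes of the other lists 0 to 22. The log2 fold changes ranged from -0.56 to -0.34 for Bgn, -0.78 to -0.54 for Col5a2, -0.39 to -0.11 for Col5a1, -2.30 to -1.52 for Col1a2 and -1.39 to -0.62 for Col3a1. Col3a1 was not tested with the filter at 1 CPM.

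Same-numbered libraries deviated from their group means with correlations of 0.02, 0.01 and 0.01, under the 0.1 set for pairing, and the reported fit used no pairing. With 3 libraries per group, such values cannot decide whether same-numbered mice shared a litter or a day. With the replicate block, 2 members passed, Col1a2 at -1.90 (adjusted p = 0.0283) and Col5a2 at -0.67 (adjusted p = 0.0370), with 344 genes changed in all and 11 genes of the other lists.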
